A study of Mus musculus with 6 samples.

Results

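The G2 and mitosis genes are 37 genes whose products carry a cell from the end of DNA replication through chromosome segregation and cytokinesis. Their names were given as a list, and all 37 were found by symbol among the 55487 genes of the count table. They were read in muscle stem cells, which lie beside muscle fibres and form new ones when muscle is damaged. The knockout (KO) group consisted of 3 mice labelled as Setdb1 knockouts and given tamoxifen, and the control group of 3 mice labelled wild type and given oil. The Setdb1 protein is a histone methyltransferase that places a silencing mark on lysine 9 of histone H3. All 6 mice were 10 weeks old, and their cells were taken 60 h after cardiotoxin (CTX), which destroys fibres and sets off a cycle of repair. Genotype and tamoxifen changed together, so their effects cannot be told apart. The sources used here give neither the strain nor the recombinase and its promoter.

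Mitotic genes are transcribed in a wave that rises in G2 and peaks in mitosis. In quiescent cells and in G1 the DREAM complex holds many of them silent through a promoter element called the CHR, and later MuvB proteins with Mybl2 and Foxm1 activate them, with NF-Y bound at CCAAT boxes. Muscle stem cells are mostly quiescent in resting muscle and divide after injury, when these transcripts mark cycling cells.

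None of the 37 genes passed the test between KO and control cells (edgeR, adjusted p under 0.05), while 2.83% of the 11224 genes tested did so. Most of the fold changes were below 0 and small, with a median log2 fold change of -0.14. Genes without overlap between the groups lay on both sides, more of them below. Of the members, 10 (27%) lay lower in every KO library than in every control library, against 11.5% of all genes tested. Another 3 (8.11%), Ube2c, Ccnb2 and Cdc25c, lay higher in every KO library, against 12.8% of all. In these bulk samples, a change in the share of dividing cells and a change in RNA per dividing cell cannot be told apart.

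The libraries held 4052569, 4909787 and 5178823 counts in KO cells, and 4568845, 4716006 and 5690844 counts in control cells. One ribosomal RNA gene took 28.6% to 38.4% of them, the largest share being in KO library 1. Levels below are CPM (counts scaled to library size, after edgeR's TMM correction). Setdb1 stood at 16.5, 12.7 and 14.7 CPM in KO cells, against 34.8, 40.5 and 32.1 CPM in control cells, and fell by 1.30 on the log2 scale (SE 0.16, edgeR adjusted p = 0.000209). The labels name no deleted exon, and the transcript was still counted in every KO library. Muscle stem cell markers summed to 1026 to 1264 CPM in KO cells and 903 to 994 CPM in control cells, and all 10 were detected in every library. Their median log2 fold change was -0.01, 6 of the 10 being negative, and Myod1, at 361, 276 and 238 CPM in KO cells against 141, 148 and 137 CPM in control cells, contributed most of the difference between the sums. Pax7, which marks stem cells, had a log2 fold change of -0.01 (adjusted p = 0.986), and Myod1, a regulator of activated myoblasts, rose by 1.04 (adjusted p = 0.000779).

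Of the 37 genes, 31 had a promoter window in RefSeq (GRCm38.p6), which runs from 250 bases before the gene's start to 50 after it. The core letters of the CHR, TTTGAA, were searched on both strands together with the CCAAT box, whose letters on the other strand are ATTGG. The CHR word was present in 25 of the 31 windows (80.6%), against 20.2% of the windows of all 27025 genes. CCAAT was present in 24 windows (77.4%), against 40% of all, and both words were present in 21 windows (67.7%), against 7.95% of all. At least 2 CCAAT boxes were found in 17 windows (54.8%), against 12.9% of all. A match describes letters and does not show a bound factor. Aurkb, Ccna2, Cdc25c, Dlgap5, Kif20a and Tpx2 were not in the promoter table.

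The promoters of 5 genes are printed to show how much the elements vary among genes with opposite fold changes. Kif20b had the lowest log2 fold change of the list, Top2a and Cdk1 were lower in every KO library than in every control library, and Ccnb2 and Ube2c were higher in every KO library. Each sequence holds the 150 bases before the start and the first 30 bases of the transcript, 5′ to 3′ on the gene's strand. Capitals mark the CHR word and the CCAAT box, each in the orientation it has on that strand, so that a CHR word on the other strand reads TTCAAA. The windows lie at chr19:34922208-34922387 (plus strand), chr11:99024160-99024339 (minus), chr10:69352883-69353062 (minus), chr9:70421525-70421704 (minus) and chr2:164769779-164769958 (plus).
Kif20b: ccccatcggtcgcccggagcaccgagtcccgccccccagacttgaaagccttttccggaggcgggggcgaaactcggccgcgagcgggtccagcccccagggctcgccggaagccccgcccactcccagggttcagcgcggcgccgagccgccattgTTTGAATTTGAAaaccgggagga
Top2a: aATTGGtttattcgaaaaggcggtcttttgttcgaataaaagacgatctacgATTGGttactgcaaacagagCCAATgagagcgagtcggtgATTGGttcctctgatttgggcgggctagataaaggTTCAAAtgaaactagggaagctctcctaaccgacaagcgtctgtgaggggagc
Cdk1: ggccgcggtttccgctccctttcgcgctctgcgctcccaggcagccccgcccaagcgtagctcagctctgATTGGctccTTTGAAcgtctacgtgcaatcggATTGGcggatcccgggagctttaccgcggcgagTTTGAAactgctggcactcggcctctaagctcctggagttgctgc
Ccnb2: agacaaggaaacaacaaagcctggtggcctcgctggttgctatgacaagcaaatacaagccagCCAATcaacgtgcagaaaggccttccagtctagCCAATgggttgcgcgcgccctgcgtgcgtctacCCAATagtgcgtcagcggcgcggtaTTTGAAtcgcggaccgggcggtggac
Ube2c: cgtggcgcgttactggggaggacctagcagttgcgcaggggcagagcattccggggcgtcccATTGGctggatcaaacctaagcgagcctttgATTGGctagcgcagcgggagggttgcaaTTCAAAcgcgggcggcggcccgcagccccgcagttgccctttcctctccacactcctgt
Kif20b carried adjoining TTTGAA words just after its start and no CCAAT box in its window. Top2a, Cdk1, Ccnb2 and Ube2c each carried several CCAAT boxes upstream of a TTTGAA word in one or the other orientation. The same pair of elements was therefore present in windows of genes with negative and with positive fold changes. The 5 genes were picked by fold change, and the 95% intervals of Top2a, Cdk1 and Ube2c include 0.

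**Figure D1:**
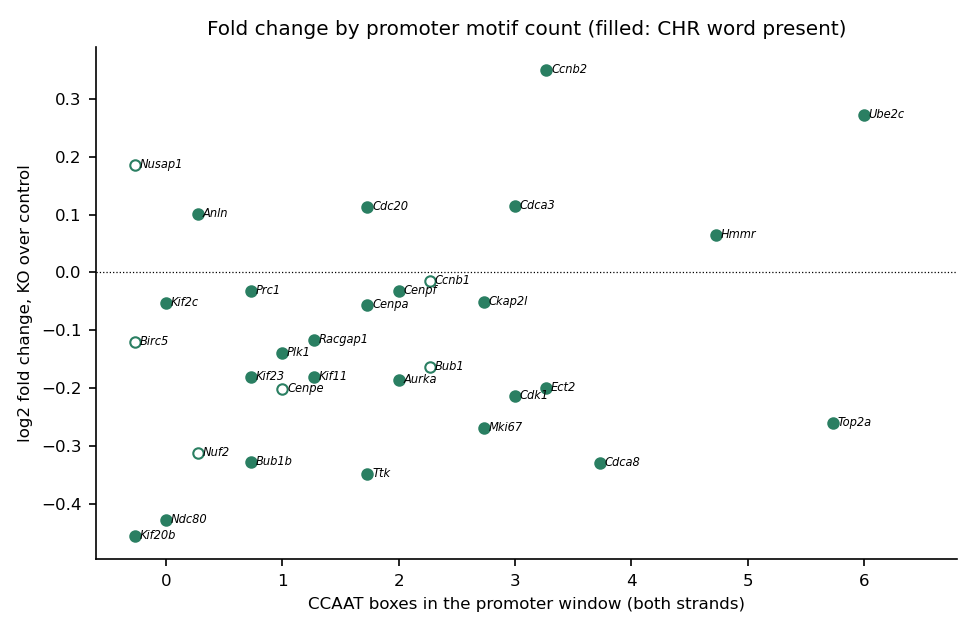
Log2 fold change (KO over control, vertical axis) against the number of CCAAT boxes in the RefSeq promoter window (horizontal axis) of 31 members. Each point is a gene, shifted sideways within its count for legibility, and filled points have the CHR word; Ube2c and Top2a, both with 6 boxes, lie on opposite sides of 0.

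By the number of CCAAT boxes, the median log2 fold change was -0.12 for 7 genes without one, -0.18 for 7 genes with 1 and -0.06 for 17 genes with at least 2. All 7 genes with 1 box had negative fold changes. The 25 genes with TTTGAA and the 6 genes without it both had a median of -0.14. These medians are descriptions, and no difference between the classes was tested.

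Among the proteins of mitotic entry, the list holds Cdk1, the kinase that drives entry, its partner cyclins Ccna2, Ccnb1 and Ccnb2, the phosphatase Cdc25c that removes inhibitory phosphates from Cdk1, and Cdca3, which promotes entry by helping to degrade the kinase Wee1. The fold changes were 3 negative and 3 positive, with a median of 0.05. Ccna2, the highest of them in CPM, was at 157, 189 and 158 CPM in KO cells, against 171, 207 and 198 CPM in control cells. The groups overlapped, because KO library 2 lay above control library 1, and the log2 fold change was -0.19 (SE 0.13, adjusted p = 0.448). Cdk1 was at 62.2, 67.1 and 58.4 CPM in KO cells, against 68.9, 80.6 and 68.3 CPM in control cells. Its groups did not overlap, although KO library 2 came close to the lowest control, and its log2 fold change was -0.21 (SE 0.12, adjusted p = 0.366).

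The B-type cyclins are given side by side, and the difference between them was not tested. Ccnb2 was at 47.1, 52.6 and 47.9 CPM in KO cells, against 37.6, 41.3 and 36.9 CPM in control cells. Every KO library was above every control library, and the log2 fold change was 0.35 (95% interval 0.09 to 0.61, unadjusted p = 0.012, edgeR adjusted p = 0.148). Ccnb1 averaged 109 ± 5.92 CPM in KO cells and 110 ± 18.02 CPM in control cells (SD, n = 3 each), with a log2 fold change of -0.02 (95% interval -0.29 to 0.26). Part of its sequence is repeated elsewhere: 23.4% of its 50-base words occur in transcripts of other genes. Of these, Ccnb1-ps, Gm12856 and Gm8416 shared the most words and held 19, 5 and 9 counts over the 6 libraries. Cdc25c, the scarcest member, was at 10.6, 10.5 and 12.7 CPM in KO cells, against 7.81, 7.72 and 8.50 CPM in control cells. Its groups did not overlap, and its log2 fold change of 0.49 was the highest of the list (95% interval 0.06 to 0.93, unadjusted p = 0.028, adjusted p = 0.220). Cdca3 had a log2 fold change of 0.12 with overlapping groups.

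The chromosome proteins were the most abundant members per length of transcript. Mki67 encodes Ki-67, which coats mitotic chromosomes and is the usual marker of cycling cells. It was at 613, 718 and 736 CPM in KO cells, against 881, 814 and 794 CPM in control cells. KO library 1 was the lowest and control library 1 the highest, and no KO library reached a control one. The log2 fold change was -0.27 (SE 0.13, adjusted p = 0.302). Top2a, the topoisomerase that untangles sister chromatids, was at 329, 386 and 400 CPM in KO cells, against 454, 461 and 421 CPM in control cells. Its groups did not overlap either, and its log2 fold change was -0.26 (SE 0.12, adjusted p = 0.290). Per kilobase of exon, Mki67 averaged 68.5 CPM in KO cells and 82.5 CPM in control cells, while Cdc25c, the lowest of the list, averaged 2.29 CPM in KO cells and 1.63 CPM in control cells.

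**Figure D2:**
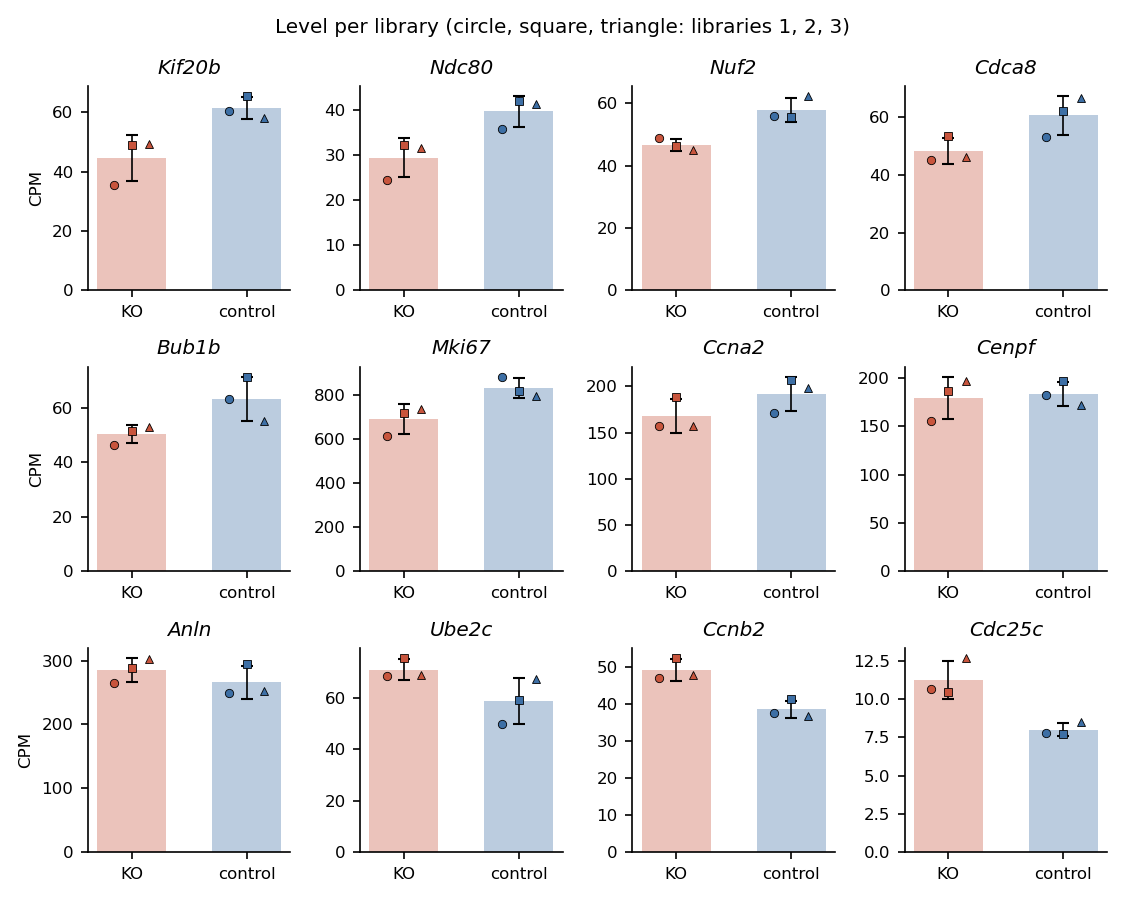
CPM of 12 members on linear axes that start at 0, with KO left of control in each panel; bars are means, error bars are SD (n = 3 each), and points are libraries. Kif20b and Ndc80 sit lower in all 3 KO libraries, Ccnb2 and Cdc25c sit higher, and for Cenpf and Anln the groups overlap.

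The mitotic kinases Plk1, which acts from centrosome maturation to cytokinesis, and Aurka, which builds the spindle poles, had overlapping groups and did not pass the test. Plk1 was at 36.7, 34.3 and 35.2 CPM in KO cells, against 35.4, 37.6 and 43.8 CPM in control cells, and the groups overlapped (log2 fold change -0.14, adjusted p = 0.622). Aurka averaged 26.3 ± 2.33 CPM in KO cells and 29.9 ± 1.97 CPM in control cells (SD, n = 3 each), with a log2 fold change of -0.19 (adjusted p = 0.520).

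The spindle checkpoint holds back anaphase until every kinetochore is attached. Its 3 members all had negative fold changes, against 49.1% of all genes tested, with a median of -0.33. Bub1b, which encodes the inhibitor BubR1, was at 46.5, 51.5 and 52.96 CPM in KO cells, against 63.5, 71.4 and 55.0 CPM in control cells. The groups did not overlap, but control library 3 lay close to the KO libraries. The log2 fold change was -0.33 (95% interval -0.60 to -0.06, unadjusted p = 0.021, edgeR adjusted p = 0.192). Bub1, its partner kinase, was also lower in every KO library than in every control library, with a smaller log2 fold change of -0.16 (adjusted p = 0.530). For Bub1, KO library 2 lay just below control library 1. Ttk, the kinase that starts checkpoint signalling, averaged 19.7 ± 2.92 CPM in KO cells and 25.1 ± 3.30 CPM in control cells (SD, n = 3 each), and its groups overlapped (log2 fold change -0.35, adjusted p = 0.282).

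The chromosomal passenger complex corrects faulty attachments and later directs cytokinesis. Birc5, its survivin subunit, was at 47.6, 56.5 and 53.2 CPM in KO cells, against 49.1, 59.9 and 62.3 CPM in control cells, and the groups overlapped (log2 fold change -0.12, adjusted p = 0.667). Cdca8, the borealin subunit, was at 45.2, 53.4 and 46.1 CPM in KO cells, against 53.3, 62.2 and 66.5 CPM in control cells. KO library 2 lay just above control library 1, so these groups overlapped, and the log2 fold change was -0.33 (95% interval -0.60 to -0.06, unadjusted p = 0.020, adjusted p = 0.188). The kinase subunit Aurkb was at 21.5, 22.6 and 22.5 CPM in KO cells, against 16.8, 24.4 and 30.8 CPM in control cells. The KO values lay inside the wider range of the controls. Its log2 fold change of -0.12 had a 95% interval of -0.53 to 0.30.

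Of the centromere and kinetochore proteins, which join chromosomes to spindle microtubules, all 5 had negative fold changes, against 49.1% of all genes tested. For 3 of them (60%) the KO libraries lay below every control, against 11.5% of all genes. Ndc80, the microtubule-binding subunit of the outer kinetochore, was at 24.5, 32.2 and 31.7 CPM in KO cells, against 35.8, 42.2 and 41.4 CPM in control cells. All KO libraries were below all controls, KO library 1 being the lowest, and the log2 fold change was -0.43 (95% interval -0.74 to -0.12, unadjusted p = 0.010, adjusted p = 0.138). Nuf2, which pairs with Ndc80 in the same complex, was at 48.9, 46.2 and 45.1 CPM in KO cells, against 55.9, 55.5 and 62.4 CPM in control cells. Again no KO library reached a control one, and the log2 fold change was -0.31 (95% interval -0.56 to -0.07, unadjusted p = 0.017, adjusted p = 0.177). The motor Cenpe, which moves chromosomes to the spindle equator, averaged 118 ± 18.3 CPM in KO cells and 136 ± 5.34 CPM in control cells (SD, n = 3 each). Its groups did not overlap, although KO library 2 lay just below control library 3 (log2 fold change -0.20, adjusted p = 0.442). Cenpa, the histone variant that marks centromeres, had a log2 fold change of -0.06 (adjusted p = 0.868). Cenpf, the most abundant of the group in CPM, was at 155, 186 and 197 CPM in KO cells, against 183, 196 and 172 CPM in control cells. Both the lowest and the highest Cenpf values came from KO libraries, and the log2 fold change was -0.03 (95% interval -0.30 to 0.23).

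The spindle motors and microtubule proteins had 4 negative and 3 positive fold changes, with a median of -0.05. Tpx2, which nucleates spindle microtubules and activates Aurora A, was at 99.5, 137 and 124 CPM in KO cells, against 122, 136 and 142 CPM in control cells. The groups overlapped and KO library 1 was the lowest (log2 fold change -0.15, adjusted p = 0.592). Kif11, the motor that pushes spindle poles apart, averaged 96.8 ± 7.81 CPM in KO cells and 110 ± 3.79 CPM in control cells (SD, n = 3 each). It was the one gene of this role with groups that did not overlap, at a log2 fold change of -0.18 (adjusted p = 0.429). Even so, KO library 2 was nearly level with control library 3. Kif2c, which depolymerises microtubules at centromeres, and Ckap2l, a spindle protein, both had a log2 fold change of -0.05. The bundling protein Nusap1 had the highest value of the role, 0.19, followed by Dlgap5, which stabilises kinetochore fibres, at 0.12 and Hmmr, a spindle assembly factor, at 0.07. Each of these 5 genes had overlapping groups, and their adjusted p-values ran from 0.500 (Nusap1) to 0.893 (Kif2c).

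Of the 7 proteins of the central spindle and cytokinesis, 6 had negative fold changes, against 49.1% of all genes tested. Kif20b, a motor that acts in abscission, the final cut between daughter cells, was at 35.6, 48.9 and 49.2 CPM in KO cells, against 60.5, 65.5 and 58.2 CPM in control cells. All KO libraries were below all controls, with KO library 1 far below the others. This was the smallest p of the list, where the log2 fold change was -0.45 (95% interval -0.75 to -0.16, unadjusted p = 0.0047, edgeR adjusted p = 0.0957). The other 6 genes of this role had overlapping groups. Anln, the actin-binding anillin that organises the contractile ring, was at 264, 289 and 302 CPM in KO cells, against 249, 295 and 253 CPM in control cells (log2 fold change 0.10, adjusted p = 0.712). The centralspindlin motor Kif23 had a log2 fold change of -0.18, and its partner Racgap1 of -0.12. Ect2, the exchange factor that switches on RhoA at the cleavage site, had a log2 fold change of -0.20, and the bundler Prc1 of -0.03. Kif20a, a motor that brings Plk1 and the passenger complex to the midzone, was at -0.15, and 29.3% of its exon bases are overlapped by Cdc23 on the opposite strand, which held 958 counts. No source used here gives the strand setting of the counting, so some counts of Kif20a may not be its own. The same holds for Ccna2, with 12.5% of its exon bases under Exosc9 (1365 counts).

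The anaphase promoting complex marks cyclin B and securin for destruction. Its 2 helpers in the list both had positive fold changes, against 50.9% of all genes tested. Ube2c, the ubiquitin-conjugating enzyme of the complex, was at 68.4, 75.6 and 69.0 CPM in KO cells, against 49.9, 59.1 and 67.4 CPM in control cells. Every KO library was above every control library, but control library 3 was nearly level with the KO libraries (log2 fold change 0.27, 95% interval -0.0017 to 0.54, adjusted p = 0.285). Its exons share 22.8% of their bases with Tnnc2 on the opposite strand, which held 32 counts in all. Cdc20, the activator of the complex, averaged 52.1 ± 2.88 CPM in KO cells and 48.1 ± 0.98 CPM in control cells (SD, n = 3 each), with overlapping groups (log2 fold change 0.11, adjusted p = 0.649).

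**Figure D3:**
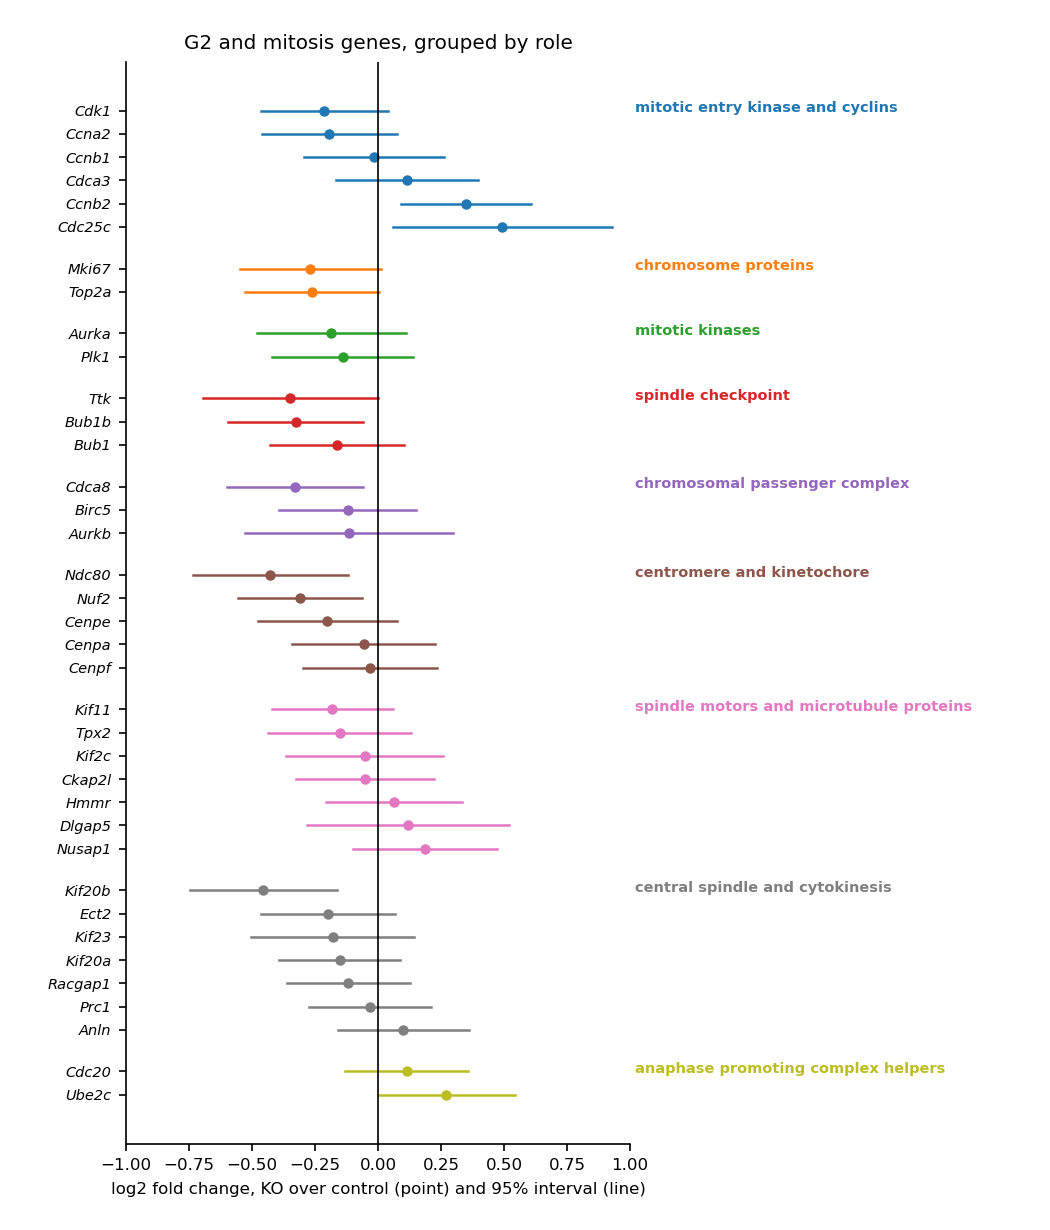
Log2 fold change (KO over control, horizontal axis) of each of the 37 members as a point with its 95% interval from edgeR, grouped and coloured by role. 30 of the 37 intervals include 0. Those that do not belong to Kif20b, Ndc80, Nuf2, Cdca8 and Bub1b below 0 and to Ccnb2 and Cdc25c above it.

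Over the whole list, edgeR called 0 genes higher and 0 lower at an adjusted p under 0.05, while it called 2.22% of all tested genes higher and 0.615% lower. DESeq2 and limma-voom also called 0 of the 37, against 1.26% and 1.78% of the genes each tested. At an unadjusted p under 0.05 stood 7 members, against 17.7% of all genes. Of these, 5 members (13.5% of the list) were lower in KO cells, against 7.64% of all genes, and 2 (5.41%) were higher, against 10.1%. That balance depended on the setting: 8 were lower and 0 higher with library totals alone, and 3 were lower and 5 higher with control library 3 and KO library 1 both left out. With single libraries left out, 3 to 7 were lower and 1 to 3 higher. The shares of all genes at this threshold were not counted in these settings. The median log2 fold change of all genes tested was -0.06 with library totals alone. It was 0.01 with control library 3 and KO library 1 both left out. Negative fold changes were found for 28 members (75.7%) and for 49.1% of all genes. The groups did not overlap, with KO below, for 10 members (27%) and 11.5% of all genes, and with KO above for 3 members (8.11%) and 12.8% of all genes. The 10 were Kif20b, Ndc80, Bub1b, Nuf2, Mki67, Top2a, Cdk1, Cenpe, Kif11 and Bub1. The median log2 fold change was -0.14 for the members and 0.01 for all genes tested, and the members ran from -0.45 to 0.49.

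The precision of these values bounds what could have been seen. Standard errors ran from 0.11 to 0.20 on the log2 scale, with a median of 0.13, and single libraries held 37 to 4399 counts per member. For 30 of the 37 members the 95% interval lay within a 1.5-fold change in either direction. The widest bounds were 0.596-fold for Kif20b and 1.90-fold for Cdc25c. The median coefficient of variation between libraries was 8.54% in KO cells and 8.66% in control cells.

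KO library 1 held most of the lowest values. It was the lowest of the 6 libraries for 20 of the 37 members (54.1%), against 21.9% of all tested genes. Control library 2 was the highest for 16 members (43.2%), against 16.4% of all genes, and control library 1 was the lowest for 10. On the log2(CPM + 1) scale, the median of the members relative to the control mean was -0.24, -0.05 and -0.09 in KO libraries 1 to 3, and -0.09, 0.08 and -0.02 in control libraries 1 to 3. Without KO library 1, the log2 fold change was -0.02 for Kif23, -0.035 for Tpx2, -0.080 for Cenpe, -0.089 for Bub1, -0.095 for Ect2 and -0.32 for Kif20b. By the medians above, KO libraries 2 and 3 fell within the range of the controls. The summed level of the 37 genes was 3347, 3902 and 3831 CPM in KO cells, against 3954, 4245 and 3999 CPM in control cells. Here all KO libraries were below all controls, with KO library 2 just under control library 1, and Mki67 was the largest term of the sum. KO library 1 also had the fewest protein-coding counts, 2002124, and the largest share of the ribosomal RNA gene, whose part in its low values was not tested.

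**Figure D4:**
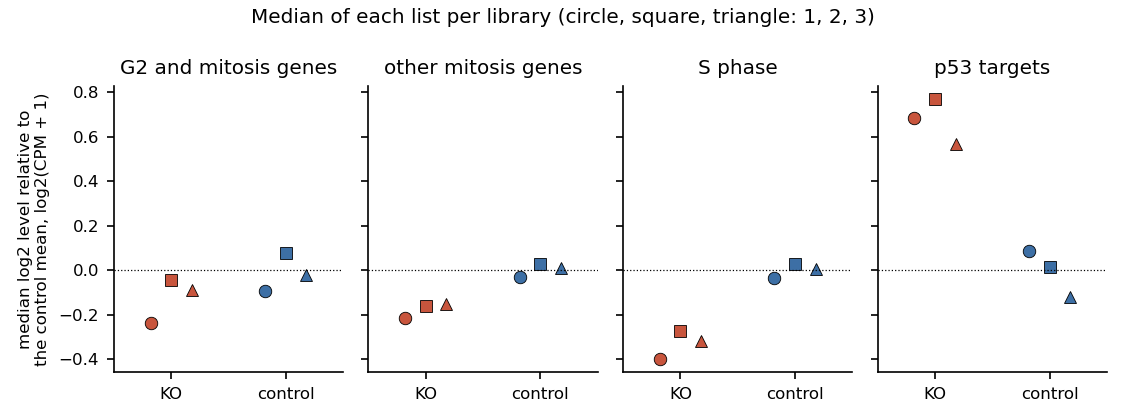
Median log2(CPM + 1) relative to the control mean, per library, for the G2 and mitosis genes, the other mitosis genes, S phase genes and p53 targets; KO libraries are left of the controls, and each point is a library. For the G2 and mitosis genes KO libraries 2 and 3 lie among the controls. All 3 KO libraries lie below every control for the other mitosis genes (-0.22 to -0.15) and for the S phase genes (-0.40 to -0.27).

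Transcripts of granulocytes and their precursors, which also divide, varied between libraries. The 11 genes of that list summed to 3.46, 880 and 287 CPM in KO cells, against 3.80, 2.92 and 2150 CPM in control cells. S100a9 was at 0 counts in control libraries 1 and 2, and Mpo at 0 in KO library 1 and control library 1. The high libraries were therefore KO 2, KO 3 and control 3. Among the low libraries, the summed G2 and mitosis level was 3347 CPM in KO library 1, against 3954 and 4245 CPM in control libraries 1 and 2. Among the high ones it was 3902 and 3831 CPM in KO libraries 2 and 3, against 3999 CPM in control library 3. The part of granulocyte transcripts in the members' values was not tested. Fibroblast markers summed to 1647 to 2488 CPM in KO cells and 869 to 1916 CPM in control cells, with none of the 10 at 0 and a median log2 fold change of 0.58 over the 9 tested, and their part was not tested either. Macrophage markers summed to at most 37.6 CPM in KO cells and 88.7 CPM in control cells. Mural cell markers summed to 115, 99.6 and 89.3 CPM in KO cells, against 47.7, 52.8 and 91.8 CPM in control cells. Of the 5 mural genes tested, 2 rose, against 2.22% of all genes. For 3 of the 5, every KO library lay above every control, against 12.8% of all genes. The median log2 fold change of the 5 was 0.72, with 3 positive and 2 negative values that ran from -1.15 to 1.51. The part of mural cells was not tested. Endothelial, Schwann cell, lymphocyte and erythroid markers summed to at most 14.9, 36.2, 2.87 and 0.532 CPM in KO cells, and to at most 13.0, 29.4, 3.51 and 0.418 CPM in control cells.

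A further 169 genes of G2 and mitosis outside the list were read in 6 groups. Of these, 3 rose (Ccng1, Cdkn1a and Gtse1), 7 fell (Chek1, Stil, Fbxo5, Cdc25a, Pbk, E2f8 and Plk4), against 2.22% and 0.615% of all genes, and the median log2 fold change was -0.20. At an unadjusted p under 0.05, 45 (26.6%) were lower, against 7.64% of all genes, and 10 (5.92%) were higher, against 10.1%. Negative fold changes were found for 131 (77.5%), against 49.1% of all genes, and the KO libraries lay below every control for 60 (35.5%), against 11.5%. On the log2(CPM + 1) scale, the median of the 169 relative to the control mean was -0.22, -0.16 and -0.15 in KO libraries 1 to 3. In control libraries 1 to 3 it was -0.03, 0.03 and 0.01. The 7 that fell lost their call in DESeq2 and limma-voom, which called 0 of the 169 lower. Each of the 7 also lost it on leaving out at least 5 of the 6 single libraries in turn, so these calls rest on the full set of libraries.

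Among 23 regulators of mitotic transcription, 1 passed the test, against 2.83% of all genes. E2f8, an atypical E2F that represses cell cycle genes, fell to 36.97, 43.1 and 37.3 CPM in KO cells, against 62.3, 49.3 and 58.2 CPM in control cells (log2 fold change -0.53, adjusted p = 0.0419). Foxm1, the activator of the mitotic wave, was at 62.8, 60.4 and 68.0 CPM in KO cells, against 51.7, 49.7 and 39.7 CPM in control cells. Every KO library was above every control, but the gene did not pass the test (log2 fold change 0.44, unadjusted p = 0.0037, adjusted p = 0.0836). Mybl2, which joins MuvB before Foxm1, was at 30.1, 22.6 and 24.4 CPM in KO cells, against 34.8, 35.5 and 34.0 CPM in control cells. Every KO library was below every control here, and this gene too missed the threshold (log2 fold change -0.44, adjusted p = 0.119). The MuvB subunit Lin54, which binds the CHR, was at 34.8, 36.3 and 41.4 CPM in KO cells, against 47.1, 53.7 and 53.9 CPM in control cells (log2 fold change -0.45, adjusted p = 0.0715). Its partner Lin9 had overlapping groups and a log2 fold change of -0.33 (adjusted p = 0.414).

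The G2 checkpoint group of 24 genes held calls in both directions, 3 higher and 2 lower, against 2.22% and 0.615% of all genes. Ccng1, a p53 target that encodes cyclin G1, rose to 185, 192 and 190 CPM in KO cells, against 63.7, 62.4 and 62.4 CPM in control cells, and its log2 fold change of 1.59 had an adjusted p of 7.61e-07. Cdkn1a, the p21 inhibitor of cyclin-dependent kinases, rose to 152, 161 and 131 CPM in KO cells, against 82.3, 89.6 and 93.5 CPM in control cells (log2 fold change 0.74, adjusted p = 0.00257). Both kept their calls without any single library. Gtse1, which restrains p53 in G2, rose to 32.2, 29.8 and 26.0 CPM in KO cells, against 17.2, 18.4 and 19.4 CPM in control cells (log2 fold change 0.67, adjusted p = 0.0232). It lost its call without KO library 1 or 2 or control library 1 or 2, with DESeq2, with library totals alone, and with control library 3 and KO library 1 both left out. The checkpoint kinase Chek1 fell to 11.2, 18.5 and 21.3 CPM in KO cells, against 31.8, 30.1 and 30.7 CPM in control cells (log2 fold change -0.84, adjusted p = 0.0296), and no KO library came near a control one. Cdc25a, the phosphatase that acts earlier than Cdc25c, fell by 0.55 (adjusted p = 0.0364), whereas Cdc25c had a log2 fold change of 0.49 that did not pass.

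In the other groups, calls were few and all lower, a call that 0.615% of all genes had. Of 21 genes of the anaphase promoting complex and separase, 1 passed: Fbxo5, the Emi1 inhibitor of the complex, fell by 0.56 (adjusted p = 0.0303). Of 48 spindle and centrosome genes, 3 passed, Stil and Plk4, which build new centrioles, and the mitotic kinase Pbk, which fell by 0.60, 0.47 and 0.53 (adjusted p = 0.0296, 0.0419 and 0.0477). None of 36 further kinetochore genes passed with any of the 3 tools, and 10 (27.8%) were lower and 0 higher at an unadjusted p under 0.05, against 7.64% and 10.1% of all genes. Incenp, the scaffold of the passenger complex, had a log2 fold change of -0.45 (adjusted p = 0.0714). Likewise, 0 of 17 cohesin and condensin genes passed with edgeR, limma-voom or DESeq2, and 6 (35.3%) were lower and 0 higher at an unadjusted p under 0.05. For 11 of the 17 (64.7%) the KO libraries lay below every control, against 11.5% of all genes. The cohesin regulator Pds5a and the condensin subunit Ncaph each had a log2 fold change of -0.41 (adjusted p = 0.0991 and 0.102).

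**Figure D5:**
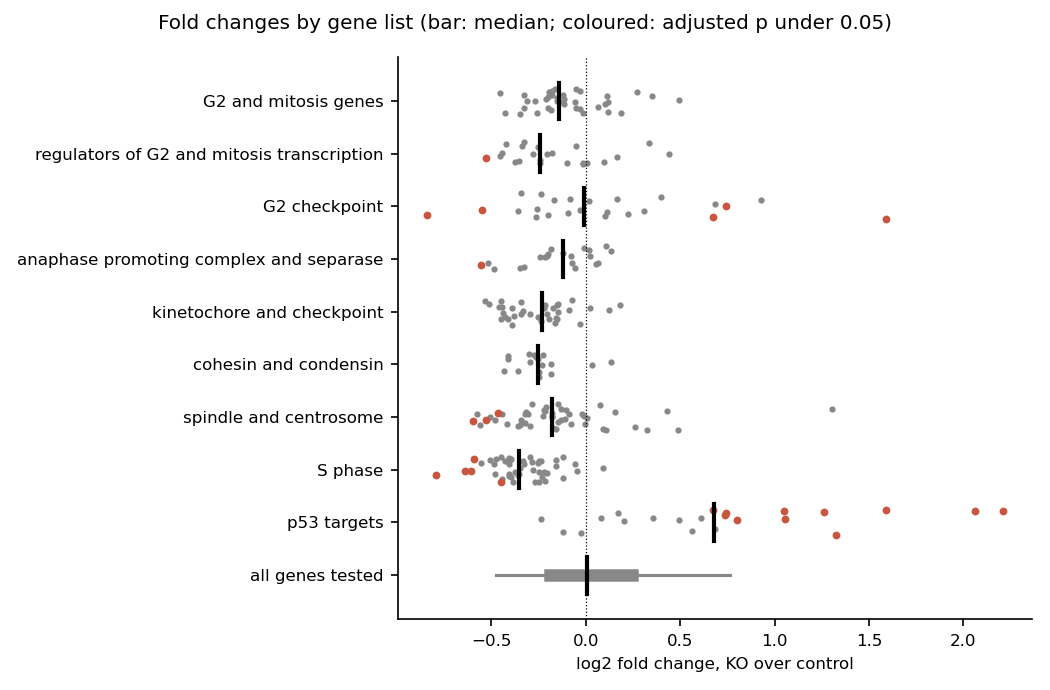
Log2 fold change (KO over control, horizontal axis) of the G2 and mitosis genes, the 6 other groups of mitosis genes, S phase genes and p53 targets; points are genes, black bars are medians, and coloured points have an edgeR adjusted p under 0.05. For all tested genes the thick line joins the quartiles and the thin line the 5th and 95th percentiles. No G2 and mitosis gene is coloured.

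Genes of S phase and p53 targets, the neighbouring programmes, were placed beside the list. Of 48 S phase genes, 5 fell, namely Hells, Tk1, Dut, Mcm10 and Mcm7, against 0.615% of all genes, and DESeq2 called 2 lower and limma-voom 1. On leaving out each of the 6 libraries in turn, the call was lost 3 times for Hells, 4 for Dut, 5 for Tk1, 5 for Mcm10 and 6 for Mcm7. The median log2 fold change was -0.36 for the 48 genes, against -0.14 for the G2 and mitosis genes. The KO libraries lay below every control for 10 of the 37 G2 and mitosis genes (27%), for 36 of the 48 S phase genes (75%) and for 11.5% of all genes tested. Of 22 p53 targets tested, 11 rose, against 2.22% of all genes, and Ccng1, Cdkn1a and Gtse1 are among the 11. The median log2 fold change of the 22 was 0.68. No difference between these lists was tested, and the members of each list share the same 6 libraries.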

How the data were processed

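The deposited values are raw read counts, 1 column per library, by Ensembl gene. Stranded TruSeq libraries were made from total RNA depleted of ribosomal RNA, per the labels' protocols, which also name a SMARTER kit, so the kit is not settled here. The submitters' processing notes name the genome build GRCm38 and the tools STAR, Salmon and DESeq2 1.34.0. How reads were counted, on which strand and with which annotation, is not given in the sources used here.

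Members and the other gene lists were chosen with earlier results of these data known. Symbols were matched for 55141 of 55487 genes, with exon lengths and overlaps from GENCODE M21 (GRCm38). Counts were tested with edgeR 4.0.16 in R 4.3.3 (robust quasi-likelihood fit, TMM, default low-count filter, two-sided), with Benjamini-Hochberg adjustment over 11224 genes and a threshold of 0.05. Intervals are 95%. The procedure was tested on simulated data. All 37 members are named. Values per library are given for the 6 smallest p-values and the most abundant gene of each role, and of the other lists the genes that passed (up to 6) or the 2 smallest p-values are named, with 8 genes named by choice, Setdb1, Cdkn1a, Foxm1, Mybl2, Lin9, Lin54, Pax7 and Myod1. One gene that this rule names is not reported here. Values per library of Cdk1, Top2a, Cdc25c and Aurkb were added after they were seen. Alternatives were other scalings, no filter, DESeq2 1.42.0, limma-voom (limma 3.58.1), the replicate number as a block, removal of structural and mitochondrial RNA genes, and each library left out. Leaving out control library 3 and KO library 1 together was chosen after seeing the data. Libraries are labelled biological replicates, and none was a copy of another.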

Additional observations from a re-analysis of the deposited data

How the results depend on the processing

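No G2 and mitosis gene passed the threshold in any of the 14 other settings. The median log2 fold change of the 37 genes stayed below 0, at -0.18 to -0.09 with single libraries left out and -0.07 with control library 3 and KO library 1 both left out, and 23 to 30 of them were negative when 1 library was left out. Some members changed sign between settings. With control library 3 and KO library 1 both left out, the log2 fold change was 0.13 for Aurkb, 0.013 for Cenpf, 0.0062 for Birc5, 0.0092 for Tpx2 and 0.093 for Ckap2l. In that setting Dlgap5, which kept its sign, was at 0.43, against 0.12 with all libraries. The causes were not tested. With single libraries left out, the log2 fold change ran from -0.12 to 0.11 for Ccnb1, -0.33 to 0.11 for Aurkb, -0.14 to 0.061 for Cenpa, -0.12 to 0.061 for Cenpf, -0.18 to 0.056 for Kif2c, -0.0068 to 0.16 for Hmmr, -0.012 to 0.19 for Cdca3, -0.079 to 0.013 for Prc1, -0.044 to 0.29 for Dlgap5, -0.16 to 0.041 for Ckap2l and -0.21 to 0.15 for Pax7.

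Of the other mitosis genes, 7 were called lower, but 3 with library totals alone, 0 with DESeq2, 0 with limma-voom, 1 with the replicate block and 0 to 4 with single libraries left out. Over all genes, 249 were called higher, and 147 with DESeq2 and 133 to 255 with single libraries left out. The 69 called lower became 138 without the low-count filter, 37 with DESeq2, 34 with limma-voom, 114 with structural and mitochondrial RNA genes removed, 106 with control library 3 and KO library 1 both left out, and 15 to 90 with single libraries left out. The causes were not tested. Same-numbered libraries did not pair, with correlations of their deviations of 0.147, -0.09 and -0.08, and not every library correlated best with its own number. With the replicate number as a block, 206 genes were called higher and 41 lower, and the median of the 37 genes was -0.14. Depth limits the scarcest members most, since Cdc25c rests on 37 to 65 counts per library. Counts without molecular identifiers may include duplicate reads.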

Other observations

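Across the 37 genes, log2 fold change and exon length had a Spearman rho of -0.33 (Pearson r of -0.35 on log2 length), against -0.08 (-0.11) across 11218 tested genes. Ccnb2 and Cdc20, with exon lengths of 1.53 and 1.87 kb, had log2 fold changes of 0.35 and 0.11, and Mki67, at 10.1 kb, had -0.27. Cenpf (15.4 kb, -0.03), Anln (9.06 kb, 0.10), Plk1 (2.20 kb, -0.14) and Aurka (2.53 kb, -0.19) did not follow that order. This is a correlation across genes that share the same 6 libraries, and genes are not independent replicates.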
